A study of Nasonia vitripennis with 6 samples.

Results

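The T-box transcription factor Nv-omb, the zinc finger transcription factor Nv-disco and the ortholog of fly CG14692 are 3 genes of the wasp Nasonia vitripennis. The study's list of expression patterns places them in the dorsolateral part of the blastoderm, a band that flanks the future serosa. Its text groups Nv-omb with the dorsal genes, first in a broad dorsal stripe and later in stripes on either side of the serosal domain. The 3 genes were taken by identifier (Nasvi2EG009552, Nasvi2EG013218 and Nasvi2EG020481). Each was found as a locus among the 20033 loci of the expression table, of which 10241 passed the filter on low counts. All 3 genes passed it. The study chose these genes with the help of the same libraries, so their calls against water and between the knockdowns are not independent evidence of a direction.

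RNA came from pools of embryos 4 to 7 h old, and the 6 libraries fell into 3 groups of 2. BMP pRNAi comprised 1 library from mothers injected with double-stranded RNA (dsRNA) of the BMP ligand gene dpp and 1 from mothers injected with dsRNA of the ligand gene gbb. Toll pRNAi comprised 2 libraries made with dsRNAs against separate stretches of the receptor gene TollA, and the water group was 2 pools from water-injected mothers. The labels give about 2 µg of dsRNA per injection, into mothers at the yellow pupal stage, and name no strain or genotype. Parental RNAi (pRNAi) acts through the mother, and each library pools many embryos from across the 3-hour window. Replicates within BMP pRNAi differ in the gene targeted, and a difference between dpp and gbb has no replicate.

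In insects, BMP ligands form a gradient that is highest at the dorsal midline, where it directs extraembryonic fate, and cells at intermediate positions read lower levels as dorsal ectoderm. The Toll receptor acts from the opposite side and directs mesoderm and ventral ectoderm. In Drosophila, omb is a target of the BMP ligand Dpp in the imaginal discs, where it has a role in patterning the wing, and disco encodes a transcription factor first known from the connection of the larval visual nerve and later from the gnathal segments of the head. CG14692 is listed in the study's annotation as a protein-binding gene, with a possible link to myosin.

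The libraries held 22754267 to 30590172 fragments on loci. TollA, the target of Toll pRNAi, had 1.23 and 4.92 FPKM (fragments scaled by transcript length and library size) after Toll pRNAi, against 128 and 101 FPKM in water, while the BMP ligand gene dpp had 7.03 FPKM with dpp pRNAi and 12.7 FPKM with gbb pRNAi, against 17.0 and 18.1 FPKM in water. The knockdown of gbb was not measured here. Summed over 3 markers of the serosa (Nv-zen, Nv-doc and Nv-tup), the level was 17.0 to 17.4 FPKM after BMP pRNAi, 71.3 to 75.5 FPKM after Toll pRNAi and 56.1 to 61.8 FPKM in water, and 4 ventral markers (Nv-vnd, Nv-sim, Nv-sna and Nv-twi) summed to 163 to 202 FPKM, 21.0 to 26.4 FPKM and 85.2 to 90.2 FPKM in the same 3 groups. None of these markers was at 0 in any library. The sums hide unequal markers. Between Toll pRNAi and water the edgeR test described below called Nv-doc higher and Nv-twi, Nv-sna and Nv-sim lower. It called no change for Nv-zen, Nv-tup or Nv-vnd. The mean of Nv-tup was 3.36 FPKM after Toll pRNAi and 3.65 FPKM in water, and that of Nv-vnd was 8.87 and 12.2 FPKM. The serosal sum was lowest and the ventral sum highest in the BMP libraries, where the 3 dorsolateral genes were lowest too, and the part of other cell types in their levels was not tested. In bulk RNA, fewer cells of a type and less RNA per cell cannot be told apart.

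Nv-omb lies on scaffold 18, positions 2061060 to 2130281 of assembly 1.0, and its locus spans 69.2 kb. It had 0.442 FPKM with dpp pRNAi and 0.407 FPKM with gbb pRNAi, 9.70 and 9.83 FPKM after Toll pRNAi, and 5.56 and 6.20 FPKM in water. These levels rest on 118 and 158 fragments after BMP pRNAi, 2634 and 2169 fragments after Toll pRNAi and 1502 and 1305 fragments in water. Both BMP libraries lay far below all the others, and the Toll libraries lay above both water libraries. The exact Poisson intervals of the lowest counts, 97.7 to 141 fragments for dpp pRNAi and 134 to 185 fragments for gbb pRNAi, cover counting error only.

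Nv-disco lies within scaffold 35, positions 807394 to 848285, an interval of 40.9 kb. Its level was 0.963 FPKM with dpp pRNAi and 0.962 FPKM with gbb pRNAi, 8.72 and 10.5 FPKM after Toll pRNAi, and 5.83 and 6.35 FPKM in water. The fragments behind these levels numbered 128 and 109 after BMP pRNAi, 965 and 1000 after Toll pRNAi and 681 and 633 in water. The order of the groups was that of Nv-omb, with no overlap, although the Toll libraries lay farther apart. The locus of Nv-disco holds another identifier, Nasvi2EG013223, so its values cannot be given to Nv-disco alone.

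CG14692 lies on scaffold 126, positions 342507 to 363168, with a locus of 20.7 kb. It had 5.14 FPKM with dpp pRNAi and 5.71 FPKM with gbb pRNAi, 16.2 and 16.3 FPKM after Toll pRNAi, and 12.2 and 11.9 FPKM in water. It was counted with 915 and 1139 fragments after BMP pRNAi, 2563 and 2255 after Toll pRNAi and 2071 and 1630 in water. The groups again did not overlap and kept the same order, but the BMP libraries retained much more of this transcript than of the other two.

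**Figure D1:**
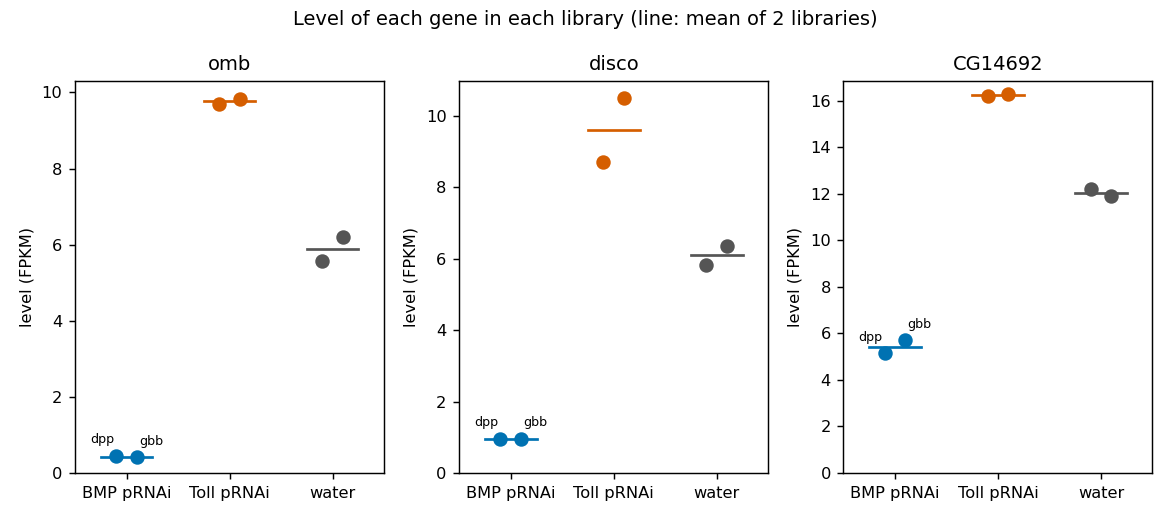
Level of Nv-omb, Nv-disco and CG14692 (FPKM, vertical axis) in each library of BMP pRNAi, Toll pRNAi and water; points are libraries, lines the means of 2 libraries, and the dpp and gbb pRNAi libraries are marked. For all 3 genes the BMP libraries are the lowest and the Toll libraries the highest, and CG14692 keeps 5.14 to 5.71 FPKM after BMP pRNAi where Nv-omb keeps 0.407 to 0.442 FPKM.

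In water the 3 genes were expressed at moderate levels. The mean was 12.1 ± 0.206 FPKM for CG14692, 6.09 ± 0.365 FPKM for Nv-disco and 5.88 ± 0.457 FPKM for Nv-omb (SD, n = 2). CG14692 exceeded 53.1% of the tested loci, and Nv-disco and Nv-omb exceeded 41.9% and 41.5%. The libraries of Nv-omb and Nv-disco overlapped in water, so no order between these genes can be read there, whereas both water libraries of CG14692 lay above all those of the other genes.

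BMP pRNAi was compared with water to find transcripts whose level changes when BMP ligands are knocked down. After BMP pRNAi all 3 genes were lower than in water (edgeR quasi-likelihood test, Benjamini-Hochberg adjusted p under 0.05), against 3.49% of all tested loci that were lower. Nv-omb fell by 3.60 on the log2 scale (standard error 0.119, 95% interval -3.87 to -3.33, edgeR adjusted p = 5.2e-06), which is 12.1-fold, and its log2 fold change ranked 7 of 10241 from the lowest. Nv-disco fell by 2.72 (standard error 0.157, interval -3.08 to -2.36, edgeR adjusted p = 8.7e-05), or 6.61-fold, and ranked 22. CG14692 fell by 1.10 (standard error 0.0876, interval -1.30 to -0.90, edgeR adjusted p = 0.00043), or 2.14-fold, and ranked 226. The 3 decreases thus covered a wide range, with intervals that did not overlap. The median log2 fold change of the 3 genes was -2.72, beside 0.01 over all tested loci. With each library left out in turn the log2 fold change stayed between -3.76 and -3.46 for Nv-omb, between -2.90 and -2.56 for Nv-disco and between -1.20 and -1.0 for CG14692, and each call was kept. Among the other settings tried, only limma on log2(FPKM + 1) without a filter ended a call, that of Nv-disco (-1.85, limma adjusted p = 0.053). For all 3 genes both BMP libraries lay below both water libraries in log2 CPM (fragment counts scaled to library size), as did 28.8% of all tested loci.

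Expressed as a share of the water mean on normalized fragments, Nv-omb retained 7.35% in the dpp library and 9.07% in the gbb library. Nv-disco retained 17.0% and 13.3% in the same libraries, and CG14692 retained 43.4% and 49.9%. The dpp library was therefore the lower of the pair for Nv-omb and CG14692 and the higher for Nv-disco. The log2 differences, dpp minus gbb library, were -0.30 for Nv-omb, 0.34 for Nv-disco and -0.20 for CG14692. All 3 lay within the range from -0.41 to 0.35 that held the middle 90% of the 6153 loci with a mean of at least 10 CPM, and these differences, with 1 library per ligand, were not tested. On FPKM the order of the pair turned for Nv-omb, with 7.52% of the water mean in the dpp library and 6.93% in the gbb library, and Nv-disco stood at 15.8% in each. FPKM is scaled by an estimated transcript length, and for Nv-omb the FPKM value per CPM was 0.108 in the dpp library, 0.0803 in the gbb library and 0.0934 to 0.107 in the other libraries. The decrease of Nv-omb against water came to 13.8-fold on mean FPKM and 12.2-fold on mean CPM.

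Toll pRNAi was compared with water in the same way. After Toll pRNAi all 3 genes were higher than in water (edgeR adjusted p under 0.05), against 2.60% of all tested loci that were higher, but these calls were lost when single libraries were left out. The log2 fold change was 0.84 for Nv-omb (standard error 0.0976, interval 0.62 to 1.07, edgeR adjusted p = 0.0084), or 1.79-fold. For Nv-disco it was 0.65 (standard error 0.135, interval 0.34 to 0.96, edgeR adjusted p = 0.041), or 1.57-fold, and for CG14692 it was 0.46 (standard error 0.0853, interval 0.26 to 0.65, edgeR adjusted p = 0.032), or 1.37-fold. The 3 intervals overlapped. The median of the 3 was 0.65, beside 0.02 over all loci. Both Toll libraries lay above both water libraries for all 3 genes, as for 32.6% of all tested loci. On normalized fragments the Toll libraries held 186% and 173% of the water mean for Nv-omb, 145% and 170% for Nv-disco and 138% and 137% for CG14692.

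Libraries 1 and 2 of a group are numbered in the order of the values above. Without Toll library 1, Toll library 2 or water library 1, the adjusted p of all 3 genes rose above the threshold (edgeR, 0.076 to 0.35), and without water library 2 only Nv-omb remained below it (edgeR adjusted p of 0.048 for Nv-omb, 0.10 for Nv-disco and 0.13 for CG14692). The log2 fold change itself stayed between 0.79 and 0.90 for Nv-omb, between 0.54 and 0.76 for Nv-disco and between 0.43 and 0.47 for CG14692, and was above 0 in every such fit. The water libraries share no title number with the knockdown libraries, the labels do not say what these numbers mark, and whether the water pools differed in another way was not tested.

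**Figure D2:**
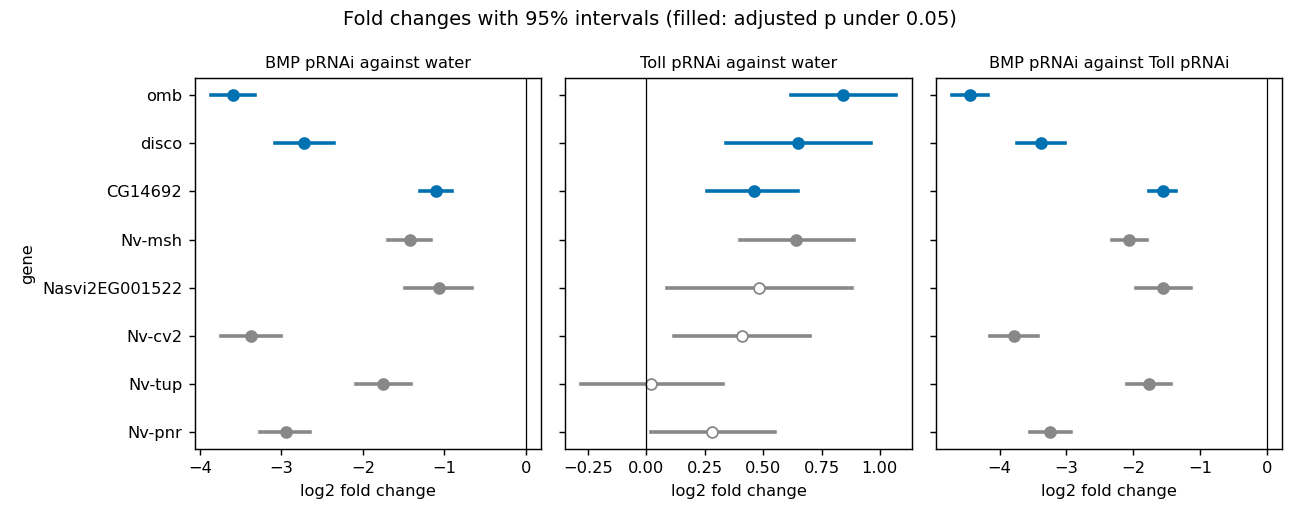
Log2 fold change (horizontal axis) with its 95% interval for the 3 genes (blue) and the 5 other dorsolateral genes of the study (grey) in each comparison; filled points have an edgeR adjusted p under 0.05. Decreases after BMP pRNAi run from 1.07 (Nasvi2EG001522) to 3.60 (Nv-omb), and the log2 fold changes after Toll pRNAi lie between 0.02 (Nv-tup) and 0.84 (Nv-omb).

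The direct comparison of the knockdowns does not use the level in water, although the water libraries enter the estimate of the spread. After BMP pRNAi all 3 genes were lower than after Toll pRNAi (edgeR adjusted p under 0.05), against 5.83% of all tested loci. The log2 fold change was -4.44 for Nv-omb (standard error 0.120, interval -4.72 to -4.17, edgeR adjusted p = 2.0e-06), at rank 7. It was -3.38 for Nv-disco (standard error 0.157, interval -3.74 to -3.02, edgeR adjusted p = 9.5e-06), at rank 17, and -1.56 for CG14692 (standard error 0.0880, interval -1.76 to -1.36, edgeR adjusted p = 3.3e-05), at rank 145. These correspond to 21.8-fold, 10.4-fold and 2.94-fold. With each library left out the values ran from -4.59 to -4.27, from -3.53 to -3.19 and from -1.64 to -1.43, and all calls were kept. Both BMP libraries lay below both Toll libraries for each gene, as for 29.1% of all tested loci. Because each group is compared with the other 2, the comparisons share libraries and are not separate tests of a gene.

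Whether the genes changed by unequal amounts can be read from the ratio of their fragments within a library, which needs no scaling between libraries. The log2 ratio of Nv-omb to CG14692 was -2.95 and -2.85 after BMP pRNAi, 0.04 and -0.06 after Toll pRNAi, and -0.46 and -0.32 in water. Fragments are not scaled by transcript length, so these ratios are read between libraries only, and they were lowest by far in the BMP libraries. The ratio of Nv-disco to CG14692 was -2.84 and -3.39 after BMP pRNAi, -1.41 and -1.17 after Toll pRNAi, and -1.60 and -1.36 in water, so the Toll and water libraries overlapped. The ratio of Nv-omb to Nv-disco was -0.12 and 0.54 after BMP pRNAi, 1.45 and 1.12 after Toll pRNAi, and 1.14 and 1.04 in water. For all 3 ratios both BMP libraries lay below both water libraries, with mean differences of -2.51, -1.63 and -0.88 on the log2 scale in the order given. The 3 ratios share genes and are not separate observations. How many ratios between other loci lack overlap was not counted, so the lack of overlap has no baseline here. An exact two-sided permutation test over 2 libraries against 2 cannot go below p = 0.333, the value reached in 7 of 9 such comparisons (adjusted p = 0.428 over the 9), and gave p = 0.667 for the 2 that overlapped.

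**Figure D3:**
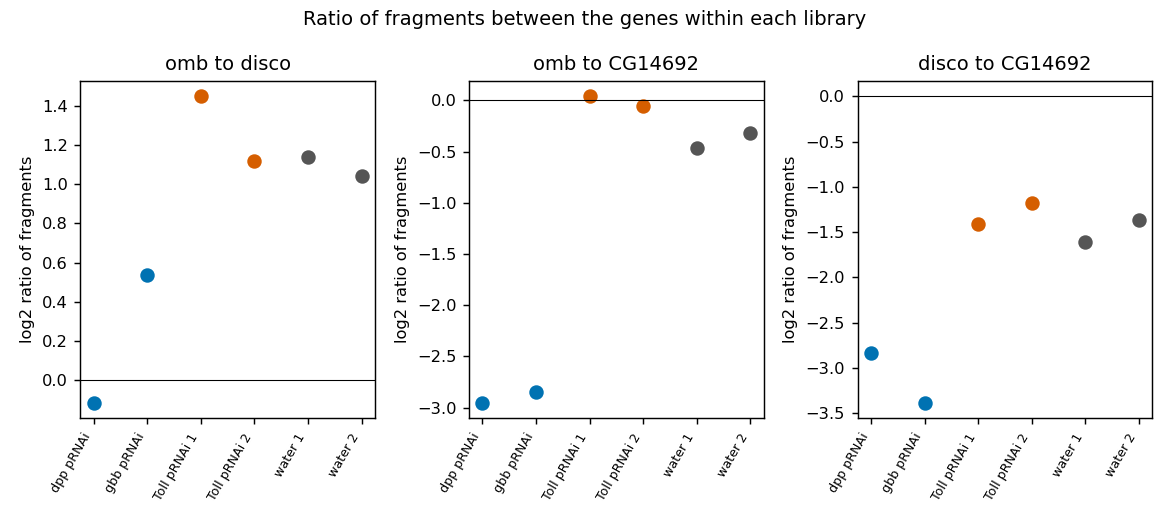
Log2 ratio of fragments between pairs of the 3 genes (vertical axis) in each library, coloured by group (BMP pRNAi blue, Toll pRNAi orange, water grey). In each panel both BMP libraries are below all others, for Nv-omb to CG14692 at -2.95 and -2.85 against -0.46 to 0.04 elsewhere.

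The neighbourhood of Nv-disco adds a limit to its values. A separate locus, Nasvi2EG013224, is given the same interval of scaffold 35. The library kit as described does not mark the strand of a transcript. Reads from any stretch that transcripts of both loci cover could therefore not be told apart by strand. Whether their exons overlap was not examined. Nasvi2EG013224 had 37 and 31 fragments after BMP pRNAi, 185 and 206 after Toll pRNAi, and 149 and 109 in water, always fewer than Nv-disco. Its log2 fold change was -2.16 after BMP pRNAi against water (standard error 0.223, edgeR adjusted p = 0.0018), -2.85 in BMP pRNAi against Toll pRNAi (edgeR adjusted p = 0.00018) and 0.69 after Toll pRNAi against water (edgeR adjusted p = 0.076).

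Near Nv-omb, 5 loci with a gene identifier lay within 300 kb on scaffold 18. The gene of the type II BMP receptor Nv-punt (Nasvi2EG009567), at positions 2273877 to 2276722 and 144 kb from the locus of Nv-omb, had 1.82 FPKM with dpp pRNAi and 0.641 FPKM with gbb pRNAi, 14.3 and 15.0 FPKM after Toll pRNAi, and 12.9 and 13.2 FPKM in water. It fell by 3.47 on the log2 scale against water (standard error 0.322, edgeR adjusted p = 0.0011), and its change after Toll pRNAi was 0.17 (edgeR adjusted p = 0.75). Smaller decreases after BMP pRNAi were found for Nasvi2EG009545, the ortholog of fly CG12581, at -0.82 (standard error 0.186, edgeR adjusted p = 0.045), and Nasvi2EG009559, at -0.58 (standard error 0.0714, edgeR adjusted p = 0.0047). The 2 remaining loci did not pass against water after BMP pRNAi. These were Nasvi2EG009557, with a log2 fold change of 0.04 (edgeR adjusted p = 0.75), and the locus of Nasvi2EG009571, which holds 3 identifiers, with -0.43 (edgeR adjusted p = 0.055). After Toll pRNAi Nasvi2EG009557 rose by 0.62 (edgeR adjusted p = 0.0084) and Nasvi2EG009559 by 0.43 (edgeR adjusted p = 0.026), while the locus of Nasvi2EG009571 fell by 1.10 (edgeR adjusted p = 0.0040).

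Around CG14692, 18 loci with an identifier lay within 300 kb on scaffold 126. Only 2 of them passed the filter on low counts, and neither passed an edgeR adjusted p of 0.05 in any of the 3 comparisons, with log2 fold changes from 0.05 to 0.33 after BMP pRNAi and -0.30 to 0.16 after Toll pRNAi. Identifiers were paired with 1799 loci, with significant loci listed before others, so neighbours that did not differ are more likely to be missing, near Nv-omb and Nv-disco as well.

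The study's list of expression patterns classes 5 further genes as dorsolateral. They are the columnar homeobox gene Nv-msh, the ankyrin domain gene Nasvi2EG001522, the extracellular BMP modulator Nv-cv2, the LIM-homeobox gene Nv-tup and the GATA factor gene Nv-pnr. Nv-tup is also among the serosa markers summed above, and the study's text describes it at the dorsal midline, so it stands in both lists. The text also counts Nasvi2EG001522 and Nv-cv2 among genes of the dorsal side. It places Pannier with genes of the extraembryonic and dorsal region. The 5 genes too were listed after a significant change in the same libraries, so a count of calls among them is not independent evidence. Relative to water all 5 were lower after BMP pRNAi, beside 3.49% of all tested loci, with a median log2 fold change of -1.75. Nv-cv2 fell by 3.38 (standard error 0.158, edgeR adjusted p = 2.2e-05) and Nv-pnr by 2.95 (standard error 0.134, edgeR adjusted p = 2.0e-05), which placed them between Nv-omb and Nv-disco. Nv-msh, at -1.42, and Nasvi2EG001522, at -1.07, lay close to CG14692. After Toll pRNAi 1 of the 5 was higher than in water, beside 2.60% of all tested loci. It was Nv-msh, at 0.64 (standard error 0.107, edgeR adjusted p = 0.026). The log2 fold change of the other 4 ran from 0.02 for Nv-tup to 0.48 for Nasvi2EG001522 (edgeR adjusted p from 0.10 to 0.94). Whether Nv-omb, Nv-disco and CG14692 differ from these 4 in their response to Toll pRNAi was not tested.

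**Figure D4:**
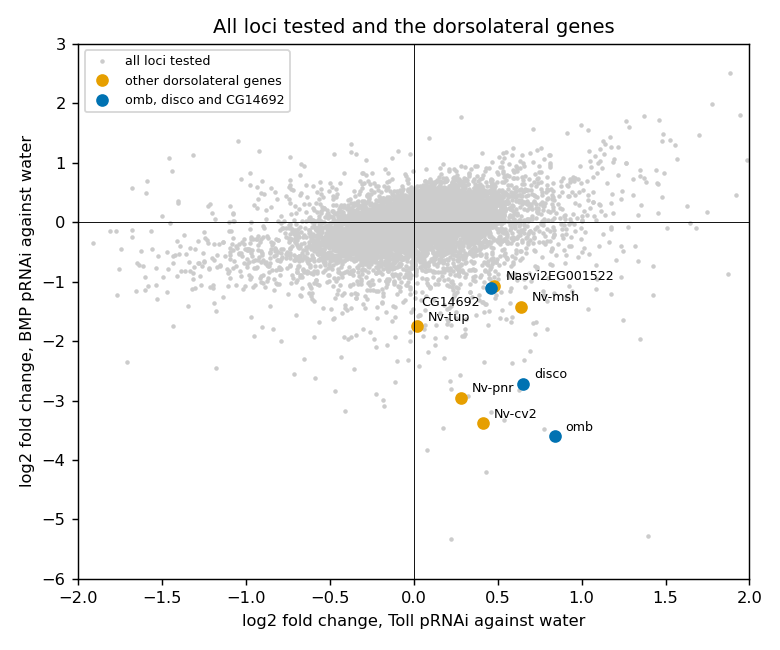
Log2 fold change after BMP pRNAi (vertical axis) and after Toll pRNAi (horizontal axis), each against the same 2 water libraries, for all tested loci (grey), the 5 other dorsolateral genes (orange) and Nv-omb, Nv-disco and CG14692 (blue); 40 loci lie outside the axes. Nv-omb stands at -3.60 and 0.84, Nv-disco at -2.72 and 0.65, and CG14692 at -1.10 and 0.46, and since both axes use the same water libraries no relation is read from the cloud of points.

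Components of the BMP pathway itself were also measured. Of 10 listed genes, 6 were paired with a locus, and the orthologs of screw (2 genes), thickveins and tolloid were not analysed here. Since the pairing lists significant loci first, a gene that differed was more likely to be paired, and a count over the 6 is no measure of the pathway. Relative to water 5 of the 6 were lower after BMP pRNAi, beside 3.49% of all tested loci, with a median of -1.06. The receptor gene Nv-punt and the modulator Nv-cv2 fell the most, as given above. Nv-tsg2, the gene of an extracellular modulator, fell by 1.15 (standard error 0.0784, edgeR adjusted p = 0.00023), close to the value of CG14692, the secreted modulator Nv-ltl fell by 0.97 and the signal transducer Nv-mad2 by 0.45. The ligand gene dpp, targeted in 1 of the BMP libraries, changed by -0.66 (edgeR adjusted p = 0.057). After Toll pRNAi only Nv-tsg2 among the 6 passed the threshold, at 0.57 (standard error 0.0762, edgeR adjusted p = 0.015).

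For each gene, the loci with a gene identifier whose profile over the 6 libraries was most like it were found by the root mean square (RMS) distance of log2 CPM, each locus centred on its own mean. Nearest to Nv-omb was Nasvi2EG010535, the PR-domain zinc finger gene related to fly CG13296, at a distance of 0.29. Nv-cv2 followed at 0.33 and Nv-disco at 0.51. Nasvi2EG010535 fell by 4.20 after BMP pRNAi against water, more than Nv-omb, and its change after Toll pRNAi was 0.43 (edgeR adjusted p = 0.075). Nearest to Nv-disco were Nv-pnr at 0.18, Nasvi2EG000051 at 0.20 and Nv-zen (Nasvi2EG011090), the homeobox gene of the serosa, at 0.23. The change of these 3 after Toll pRNAi ran from 0.21 to 0.28, beside 0.65 for Nv-disco. Their 95% intervals, with upper ends from 0.44 to 0.55, overlapped that of Nv-disco (0.34 to 0.96), and the difference was not tested. Among these nearest loci, the study's list places Nasvi2EG010535, Nasvi2EG000051 and Nv-zen in the serosa. It classes Nv-cv2, Nv-disco and Nv-pnr as dorsolateral.

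CG14692 had counterparts at smaller distances. These were Nasvi2EG019897 at 0.05, Nasvi2EG011380, the ortholog of the growth regulator yorkie, at 0.06, and Nv-doc (Nasvi2EG003929), the dorsocross gene of the T-box family, at 0.07. The study's list places Nasvi2EG019897 in a broad lateral domain, and Nasvi2EG011380 and Nv-doc in the serosa. The distance is not scaled by the size of a gene's change, so it does not rank likeness between the 3 genes. The Pearson correlation with the named loci was 0.997 to 0.998 for CG14692 and 0.991 to 0.993 for Nv-omb and Nv-disco. Nv-doc had 10.7 and 12.4 FPKM after BMP pRNAi, 36.2 and 35.1 FPKM after Toll pRNAi and 27.0 and 23.6 FPKM in water. It changed by -1.17 (edgeR adjusted p = 0.00074, standard error 0.102) after BMP pRNAi and by 0.52 (edgeR adjusted p = 0.033, standard error 0.0986) after Toll pRNAi, where CG14692 had -1.10 and 0.46. Nv-doc bears on Nv-omb as well, since the study's list of fly orthologs assigns the identifier of Nv-omb to the fly Dorsocross genes, and its naming as omb rests on the study's other lists. The T-box genes had separate loci and unequal values, with the decrease of Nv-omb at 3.60 and that of Nv-doc at 1.17. The distance between Nv-omb and CG14692 was 1.28 and that between Nv-disco and CG14692 was 0.83. Among the 10240 other tested loci, CG14692 stood at place 108 in order from Nv-omb and at place 95 from Nv-disco. In order from CG14692, Nv-omb stood at place 10170 and Nv-disco at place 8977. Loci without an identifier were left out of these names, and 1 of them lay nearer to Nv-disco than Nv-pnr did and 1 nearer to Nv-omb than Nv-disco did. Likeness was measured over 6 libraries, and the loci named depended on the measure. With Pearson correlation in place of distance 0 of the 3 loci remained for Nv-omb, 0 for Nv-disco and 2 for CG14692.

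**Figure D5:**
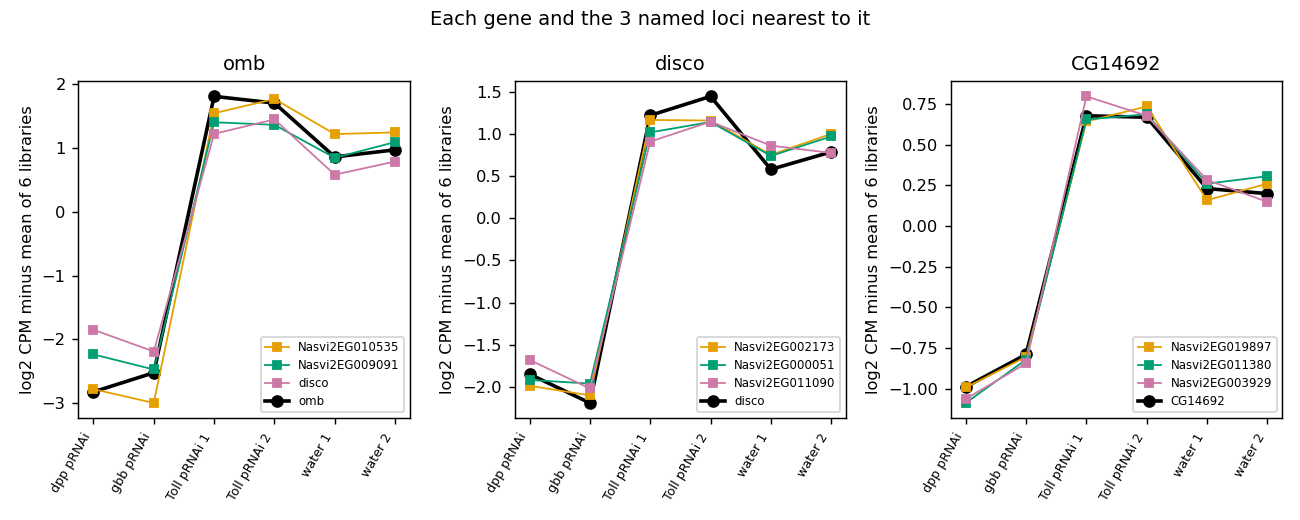
Log2 CPM minus the mean of the 6 libraries (vertical axis) in each library for each gene (black) and the 3 loci with an identifier nearest to it (coloured); lines only join the points of a gene. The nearest profile with an identifier lies at 0.29 for Nv-omb, 0.18 for Nv-disco and 0.05 for CG14692.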

How the data were processed

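The data were 6 poly-A RNA-seq libraries, 2 for each of BMP pRNAi, Toll pRNAi and water. The authors mapped reads with TopHat2 2.0.3 to genome assembly 1.0 with annotation 2.0 as a guide. Cuffdiff (Cufflinks 2.0.2) was run over the 3 conditions. Their deposited table gives expected counts of fragments per locus and library, unscaled, for 20033 loci, together with the authors' FPKM, which is scaled for library size and estimated transcript length. Its replicate numbers were tied to libraries through the listing order in the authors' command. A deposited table of counts pooled by condition was not used.

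The expected counts, rounded, went into edgeR 4.0.16 in R 4.3.3 (glmQLFit and glmQLFTest, TMM, filterByExpr, all 6 libraries, a mean per group), with Benjamini-Hochberg adjustment over 10241 loci and a threshold of 0.05. Standard errors are the size of the log2 fold change over the root of the F statistic. The biological coefficient of variation was 0.0953. CPM are TMM-normalized, and log2 CPM for profiles used a prior count of 2. The depth was 22754267 to 30590172 fragments. Each library is a pool of embryos, and p-values measure only the spread between 2 pools per group, estimated in part from all tested loci. In BMP pRNAi the 2 pools also differ in the gene targeted. Alternatives were RLE size factors, no filter, at least 10 fragments in every library, only the groups compared, each library left out, a replicate block, DESeq2 1.42.0, and limma 3.58.1 on log2(FPKM + 1) or log2(FPKM + 0.1). Ratios between genes were compared by exact permutation with scipy 1.17.1 in Python 3.11.15.

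Genes named were the 3 genes, the other dorsolateral genes, the targeted genes, a list of BMP pathway genes, loci within 300 kb, and for each gene the 3 nearest loci with an identifier. The genes and lists were chosen with earlier results of these data known. The study's pairing of loci with identifiers, of which part was used, covers 1799 loci and 2019 identifiers, and 0 value columns were left unmatched.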

Additional observations from a re-analysis of the deposited data

How the results depend on the processing

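Across the alternatives the 9 results on Nv-omb, Nv-disco and CG14692 gave 129 values, of which 0 changed direction and 111 kept the call. The decreases after BMP pRNAi, against water or against Toll pRNAi, kept it in 86 of 87, and the exception was Nv-disco against water with limma on log2(FPKM + 1) without a filter, at -1.85 (limma adjusted p = 0.053). The increases after Toll pRNAi were less firm. Beside the fits that left out a library, the call was lost with limma on log2(FPKM + 1) without a filter for Nv-omb at 0.65, Nv-disco at 0.58 and CG14692 at 0.40 (limma adjusted p = 0.087, 0.17 and 0.11), with limma on log2(FPKM + 0.1) for Nv-disco at 0.64 and CG14692 at 0.43 (limma adjusted p = 0.059 and 0.063), and with limma on log2(FPKM + 1) for CG14692 at 0.40 (limma adjusted p = 0.060). With each library left out the log2 fold change after Toll pRNAi ran from 0.79 to 0.90 for Nv-omb, 0.54 to 0.76 for Nv-disco and 0.43 to 0.47 for CG14692. A fit that leaves 1 library in a group assumes that it varies like the others. The cause of these losses was not tested.

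The number of loci called moved much more than the 3 genes did. Against 568 loci called after BMP pRNAi, 2053 were called with no filter, 1325 with DESeq2, 162 with only the groups compared and 43 with limma on log2(FPKM + 1) without a filter, and 90 to 2628 with a library left out. Against 371 after Toll pRNAi, these were 1238, 779, 1343 and 43, and 22 to 1358. Against 706 between BMP pRNAi and Toll pRNAi, 1641 were called with no filter, 398 and 397 with limma on log2(FPKM + 1) and log2(FPKM + 0.1), 124 with limma and no filter, and 217 to 2045 with a library left out. The shares of all loci called, given beside the 3 genes, therefore depend on the fit.

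Toll and BMP libraries share title numbers, which the labels do not tie to a batch. The deviations of same-numbered libraries correlated at 0.125, over 2 pairs. The BMP libraries of these pairs also differ in the ligand targeted, so the correlation cannot settle whether the numbers mark a pairing. The main fit left the numbers out. With the number as a replicate block, fitted to the knockdown libraries only, the count between these groups was 1369, against 474 in the same libraries without the block. The log2 fold changes with the block were -4.44, -3.37 and -1.55 for Nv-omb, Nv-disco and CG14692.

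Of the 3 loci most like Nv-omb, Nv-disco and CG14692, log2(FPKM + 1) in place of log2 CPM kept 0, 1 and 3. The ratios of fragments between the genes were also recomputed with each library left out, an alternative chosen after seeing the data. Between BMP pRNAi and water the difference ran from -2.58 to -2.44 for Nv-omb to CG14692, -1.90 to -1.35 for Nv-disco to CG14692 and -1.21 to -0.56 for Nv-omb to Nv-disco, and 0 ratios changed direction in any comparison. Counting error limits the lowest values, those of Nv-omb and Nv-disco after BMP pRNAi.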
